A study of Mus musculus with 8 samples.

Results

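The cytosolic heat shock chaperones were taken as 10 genes, Hsph1, Hspa1a, Hspa1b, Hspa8, Hsp90aa1, Hsp90ab1, Dnaja1, Dnajb1, Hspb1 and Hsf1, and every probe set that the array's annotation assigns to 1 of these symbols alone was used. This gave 22 of 45037 probe sets, covering 8 of the 10 genes, out of 18193 genes with a probe set of their own. Hsp90ab1 and Hsf1 were not analysed here. Liver RNA from 4 groups of mice was measured on 8 Affymetrix expression arrays, with between 1 and 5 probe sets for each of these genes. The MT mice were Sirt1-null animals of 3 months, born with a targeted deletion of the deacetylase gene Sirt1 in the whole body. They were set against wild type (WT) mice of 3, 12 and 19 months. All animals were of a mixed 129/FVB/Black Swiss background, lived in a 12-h light environment and were killed in the morning, and each group had 2 arrays. The study's text gives 3 mice per group. The sources used here do not say if RNA of several mice was pooled on an array, so the p-values cover the spread between these arrays alone, which may be technical. Few Sirt1-null mice of this cross live to adulthood, so the MT animals are survivors.

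Heat shock chaperones hold unfolded proteins, fold them or pass them on for degradation. Hsp70 proteins bind short hydrophobic stretches in a cycle of ATP binding and hydrolysis. J proteins deliver the substrate and start hydrolysis, exchange factors such as the Hsp110 protein reset the cycle, and Hsp90 completes the maturation of kinases and steroid receptors. Small heat shock proteins hold unfolded proteins without ATP. The transcription factor HSF1 drives most of these genes under stress from the heat shock element, an array of inverted GAA units. In liver several of them also follow the daily rhythm of feeding and body temperature.

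The RefSeq promoter windows of GRCm38.p6, 250 bases before to 50 bases from the transcription start on, show how this element is placed in the genes whose signals differed most clearly, and in Hspb1, whose signals lay on the other side. The motif was searched as GAANNTTC and TTCNNGAA, each of which reads the same on both strands, and capitals mark the matches.
Hsph1: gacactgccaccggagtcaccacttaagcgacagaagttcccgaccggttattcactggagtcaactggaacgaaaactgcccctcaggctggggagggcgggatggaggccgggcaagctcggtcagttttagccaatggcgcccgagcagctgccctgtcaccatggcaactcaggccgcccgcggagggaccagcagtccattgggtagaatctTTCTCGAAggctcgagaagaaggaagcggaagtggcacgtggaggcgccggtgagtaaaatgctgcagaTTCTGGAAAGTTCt
Hspa1b: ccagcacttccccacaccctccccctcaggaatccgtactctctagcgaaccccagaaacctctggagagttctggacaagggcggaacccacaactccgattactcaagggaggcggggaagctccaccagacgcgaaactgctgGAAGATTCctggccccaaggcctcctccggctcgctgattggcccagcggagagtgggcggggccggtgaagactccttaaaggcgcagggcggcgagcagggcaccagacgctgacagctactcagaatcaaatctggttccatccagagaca
Dnaja1: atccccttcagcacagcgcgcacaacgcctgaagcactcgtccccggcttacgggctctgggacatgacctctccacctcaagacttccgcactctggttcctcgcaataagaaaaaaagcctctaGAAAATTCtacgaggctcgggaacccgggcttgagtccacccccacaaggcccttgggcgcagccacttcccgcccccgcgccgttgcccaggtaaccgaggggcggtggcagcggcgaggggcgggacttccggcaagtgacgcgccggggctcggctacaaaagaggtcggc
Hspb1: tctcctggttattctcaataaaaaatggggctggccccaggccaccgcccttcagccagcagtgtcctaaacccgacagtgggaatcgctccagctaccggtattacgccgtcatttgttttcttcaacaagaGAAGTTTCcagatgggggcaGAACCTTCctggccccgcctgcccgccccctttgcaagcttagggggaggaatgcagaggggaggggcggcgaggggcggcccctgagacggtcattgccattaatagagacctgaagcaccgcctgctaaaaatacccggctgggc
The Hsph1 window is chr5:149636287-149636586 on the minus strand, the Hspa1b window chr17:34959189-34959488 on the minus strand, the Dnaja1 window chr4:40722218-40722517 on the plus strand and the Hspb1 window chr5:135887669-135887968 on the plus strand. Hsph1 had 3 matches, at -33 to -26 and, overlapping each other just after the start, at 37 to 44 and 42 to 49. Hspa1b had 1 at -104 to -97, Dnaja1 had 1 at -124 to -117, and Hspb1 had 2, at -117 to -110 and -97 to -90.

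Windows were found for 6 of the 10 genes, 10 windows in all, of which 6 windows of 5 genes held a match. Of all 32851 promoter windows, 15.1% held one. Those without a match were both windows of Dnajb1 and the other 2 windows of Dnaja1, which says only that these letters are not in them. The Hspa1a and Hspa1b windows differed at 4 of 300 positions and had their match at the same place. This likeness limits the signals given next, since the 2 genes are near-identical copies and probes for one can bind transcripts of the other. Hsph1 also held the E-box letters CACGTG, the binding sequence of CLOCK and BMAL1, at 3 to 8 in this window, and 7.15% of all windows held these letters.

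**Figure D1:**
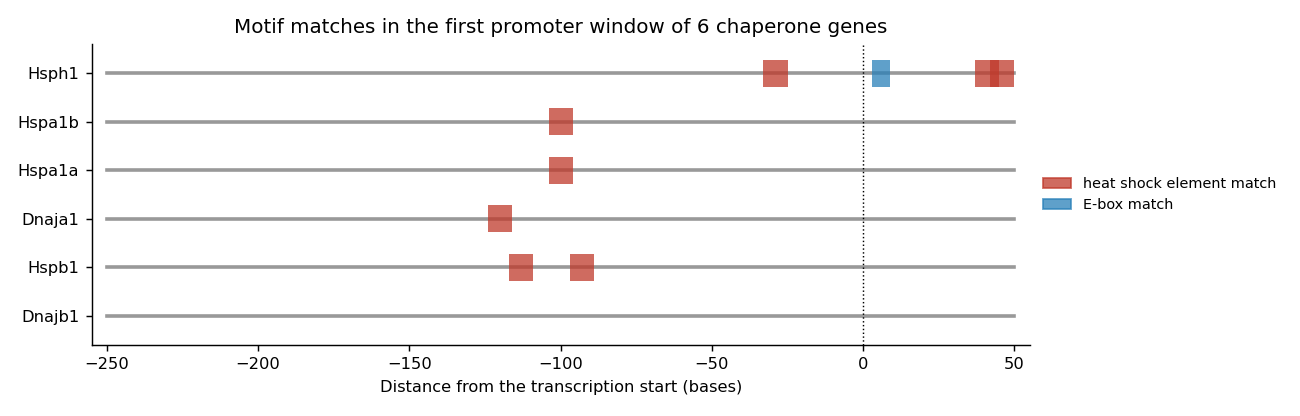
Matches to the heat shock element (red) and the E-box (blue) in the first listed promoter window of 6 genes, by distance from the transcription start in bases. Matches lie upstream of the start in Hspa1b, Hspa1a, Dnaja1 and Hspb1, and on both sides of it in Hsph1.

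Values are MAS5 signals, a linear brightness per probe set that can be compared between arrays but not between probe sets. They were put on the log2 scale and tested with limma over the 22519 probe sets in the upper 50% of mean signal, with all 4 groups in 1 fit, and a probe set was called at a Benjamini-Hochberg adjusted p under 0.05. Of the 22 chaperone probe sets 20 were tested, and 2 of the 5 probe sets of Hsp90aa1 lay below the filter. Array medians lay between 74.7 and 83.1, and arrays correlated at 0.913 to 0.926 within groups and at 0.909 to 0.922 between groups. Sirt1 was read by 1 probe set, with 615 and 713 on the MT arrays and 589 and 539 on the 3-month WT arrays. The sources used here do not say whether its probes lie in the deleted part, so it does not check the genotype. The methods describe the mutant mice as male, whereas all 3 probe sets of Xist, the RNA of the inactive X chromosome, lay between the 95.2 and the 99.2 percentile on every array.

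The Hsp70, Hsp110, Hsp90 and J protein genes gave higher mean log2 signals in MT livers than in WT livers of any age in each tested probe set, although single arrays overlapped in some, Hspa1a among them. Against 3-month WT livers, Hsph1, Hspa1b and Dnaja1 rose. Hspa8, Hsp90aa1 and Dnajb1 were higher without passing the test. Hspb1, the small heat shock protein, was lower and did not pass either. Of the 20 tested probe sets 5, of 3 genes, were called, all higher in MT. This is 25.0%, against 0.515% of all tested probe sets called in either direction and 0.249% called higher. The genes were listed with earlier results of these data known, so this share and those below are a description. No enrichment was tested. The median log2 difference over the 8 genes, each by its probe set of highest mean, was 0.63, against 0.02 over all tested probe sets.

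These 5 calls depended on the fit. The count was 0 when either one of the 3-month WT arrays was left out, and 0 with a prior variance that does not follow the signal level. It was 2 when MT array 2 or either one of the 19-month WT arrays was left out, 5 without MT array 1, and 9 when either one of the 12-month WT arrays was left out. The count over all tested probe sets, 116, moved to 14 and 13 without the first and the second 3-month WT array, and to 9 with the flat prior variance.

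**Figure D2:**
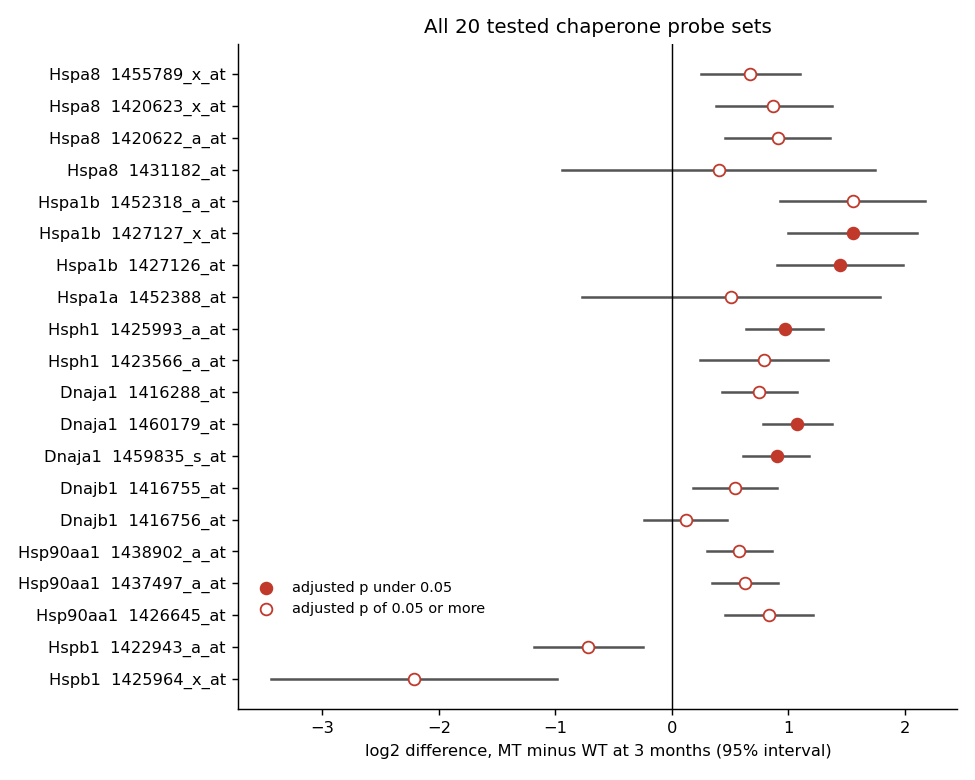
Log2 difference of each tested chaperone probe set, MT minus WT at 3 months, with its 95% interval from limma. Filled points passed an adjusted p of 0.05, which were 1 of Hsph1, 2 of Hspa1b and 2 of Dnaja1, and 18 of 20 points lie right of 0.

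Hspa8 encodes the constitutive Hsp70 of the cytosol. Its probe set of highest mean read 38195 and 36297 on the MT arrays, against 20572 and 26458 at 3 months, 15287 and 22961 at 12 months and 23855 and 24377 at 19 months in WT. Both MT arrays lay above all 6 WT arrays, and the lower MT array was 1.37 times the highest WT array. The log2 difference from 3-month WT livers was 0.67 ± 0.19 (SE, n = 2 arrays each; limma adjusted p = 0.16). A second probe set read 17596 and 18266 in MT, against 8920 and 10247 at 3 months, 5594 and 8955 at 12 months and 14808 and 13019 at 19 months in WT. Here the 12-month arrays had the lowest mean, though they overlapped the 3-month WT arrays. The MT livers rose above the 12-month livers by 1.34 ± 0.20 (adjusted p = 0.0324), the only Hspa8 call. The probe set 1420623_x_at read 30243 and 26136 in MT and 10077 to 18135 in WT. The last, 1431182_at, was spread too widely to compare, with 282 and 1273 on the 2 MT arrays and 119 to 600 in WT.

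Hspa1b encodes the stress-inducible Hsp70. Its probe set of highest mean read 3408 and 5944 in MT, against 1383 and 1702 at 3 months, 1347 and 2002 at 12 months and 2377 and 1989 at 19 months in WT. Another, 1427127_x_at, read 2178 and 3163 in MT, against 735 and 1098 at 3 months, 880 and 1152 at 12 months and 1349 and 1331 at 19 months in WT. The last, 1427126_at, read 1544 and 2429 in MT, against 602 and 845, then 730 and 865, then 1130 and 1081 at the 3 WT ages. In all 3 the MT arrays were apart from all WT arrays, and MT array 2 was the higher of both. The log2 differences from 3-month WT livers were 1.55 ± 0.28 (adjusted p = 0.0514), 1.55 ± 0.24 (0.0335) and 1.44 ± 0.24 (0.0417), so that the probe set of highest mean missed the threshold that the other two passed. Both calls ended when MT array 2, either one of the 3-month WT arrays or either one of the 19-month WT arrays was left out, and when only the groups compared were fitted. The suffix x marks a probe set with probes that may bind other transcripts. It is also borne by the Hspa8 probe set of highest mean, 1455789_x_at, and by 1420623_x_at of Hspa8. The Hspb1 probe set of lower mean, 1425964_x_at, bears it too.

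Hspa1a, the neighbouring copy, gave no such picture in its 1 probe set. It read 108 and 313 in MT, against 142 and 118 at 3 months, 81.6 and 41.3 at 12 months and 41.0 and 79.8 at 19 months in WT. The MT arrays overlapped the 3-month WT arrays, and both 19-month arrays lay below the median of their array. Taking the array median where a 19-month signal was under it, the MT mean was at least 2.31 times the 19-month mean. This bound rests on MT arrays as far apart as 108 and 313. The difference from 19-month WT livers without the bound, 1.69 ± 0.57, did not pass (limma adjusted p = 0.27). The difference from 3-month WT livers, 0.51 ± 0.57 (adjusted p = 0.764), had an interval of -0.77 to 1.79 and turned to -0.26 without MT array 2.

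Hsph1 encodes the Hsp110 exchange factor of Hsp70. Its probe set of highest mean read 2696 and 2477 in MT, against 1257 and 1387 at 3 months, 1554 and 1325 at 12 months and 1747 and 1646 at 19 months in WT. Both arrays of each group lay close together, and the lower MT array was 1.42 times the highest WT array. Hsph1 rose by 0.97 ± 0.15 on the log2 scale, 1.96-fold (adjusted p = 0.0282). The call was kept in 2 of the 8 fits with an array left out, those without a 12-month WT array, and ended when each array was centred on its median. The other probe set read 1126 and 693 in MT and 415 to 782 in WT, so the groups overlapped there (0.79 ± 0.24, adjusted p = 0.198).

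**Figure D3:**
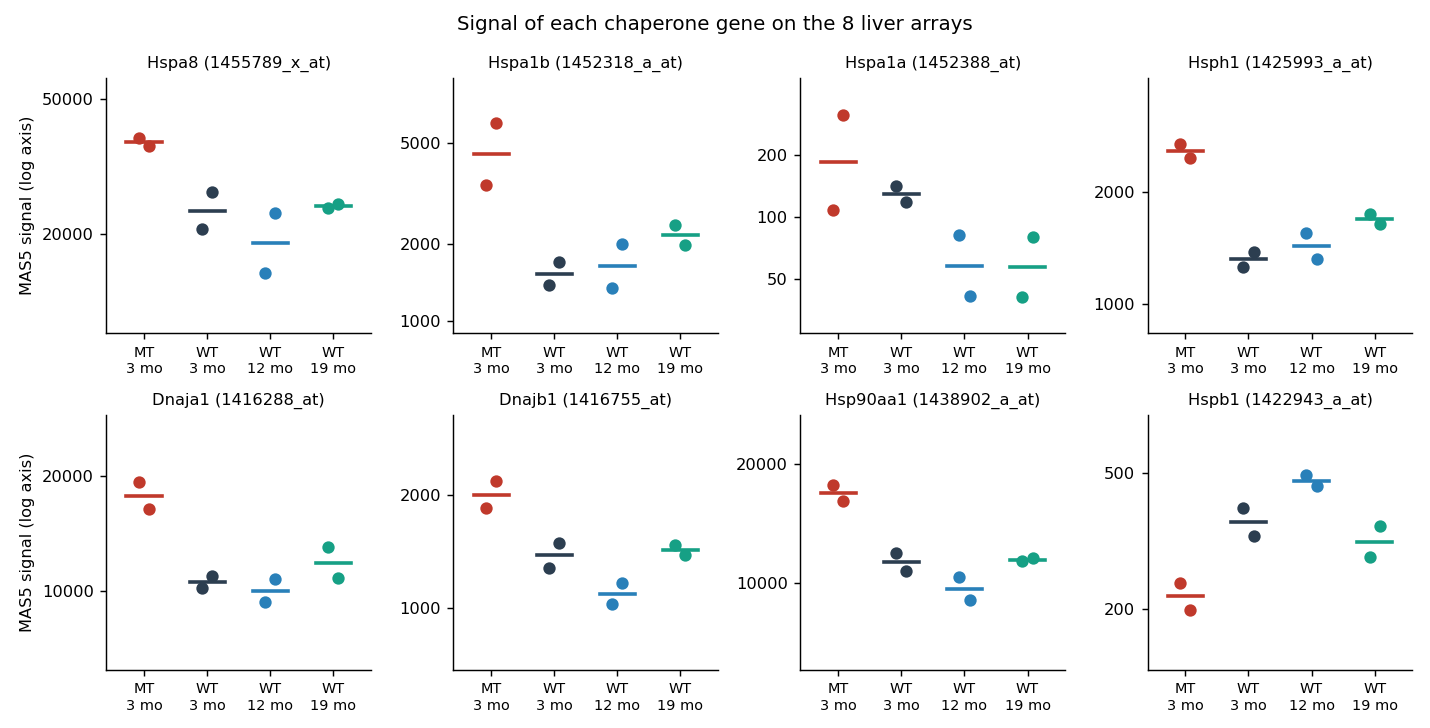
MAS5 signal (log axis) of the probe set of highest mean of 8 chaperone genes, with 1 point per array and a bar at the geometric mean of the 2 arrays, for MT at 3 months and WT at 3, 12 and 19 months. The MT points lie above all WT points for Hspa8, Hspa1b, Hsph1, Dnaja1, Dnajb1 and Hsp90aa1, overlap them for Hspa1a and lie below them for Hspb1.

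Dnaja1 is a farnesylated J protein that works with Hspa8, and it was called in each of the MT comparisons. The probe set 1460179_at read 11312 and 10390 in MT, against 5036 and 5266 at 3 months, 5798 and 6275 at 12 months and 6540 and 5492 at 19 months in WT. The probe set 1459835_s_at read 8518 and 9457 in MT, against 4648 and 5011, then 4114 and 4446, then 5626 and 5216 at the 3 WT ages. All 3 probe sets, 1416288_at with 19235 and 16358 in MT and 9348 to 13015 in WT, were apart between MT and WT. Against 3-month WT livers 1460179_at rose by 1.07 ± 0.13 (2.11-fold, adjusted p = 0.0123) and 1459835_s_at by 0.90 ± 0.13 (adjusted p = 0.0205), while 1416288_at, of highest mean, gave 0.75 ± 0.14 (adjusted p = 0.0613). The call of 1460179_at was kept in 6 of 8 fits with an array left out, and ended when either one of the 3-month WT arrays was left out. That of 1459835_s_at was kept in 5 and ended also without MT array 2.

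Dnajb1, the J protein known as Hsp40, read 1847 and 2184 in MT with its probe set of highest mean, against 1275 and 1495 at 3 months, 1025 and 1163 at 12 months and 1469 and 1389 at 19 months in WT. The MT arrays were above all WT arrays, with a difference from 3-month WT livers of 0.54 ± 0.16 (adjusted p = 0.178). In the other probe set they were not: it read 841 and 901 in MT and 625 to 882 in WT (0.12 ± 0.16, adjusted p = 0.809, interval -0.24 to 0.47).

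Hsp90aa1 encodes the inducible cytosolic Hsp90. Its probe set of highest mean read 17722 and 16141 in MT, against 11887 and 10729 at 3 months, 10309 and 9027 at 12 months and 11359 and 11522 at 19 months in WT. The other tested probe sets read 10726 and 10372 in MT and 6422 to 7992 in WT for 1437497_a_at, and 11009 and 7983 in MT and 4910 to 6668 in WT for 1426645_at. In all 3 the MT arrays lay above all WT arrays. The differences from 3-month WT livers were 0.58 ± 0.12, 0.63 ± 0.13 and 0.83 ± 0.17, with adjusted p of 0.0764, 0.0676 and 0.0681. The 2 probe sets below the filter, with at most 90.2 on any array, overlapped between MT and WT.

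Hspb1, the small heat shock protein Hsp27 (Hsp25 in mouse), was the only chaperone gene here whose signals were lower in MT. Its probe set of highest mean read 238 and 199 in MT, against 393 and 327 at 3 months, 491 and 457 at 12 months and 284 and 348 at 19 months in WT. The other read 34.1 and 92.1 in MT, against 329 and 206, then 393 and 168, then 108 and 176 at the 3 WT ages. In both, each MT array was below every WT array. The differences from 3-month WT livers were -0.72 ± 0.21 (adjusted p = 0.17) and -2.21 ± 0.55 (adjusted p = 0.114), and neither passed. In the probe set of lower mean, the 34.1 of MT array 1 lay below that array's median of 81.8. The size of its difference therefore has little support.

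Counted over the tested probe sets, both MT arrays lay above all 6 WT arrays in 14 of 20, from 6 genes, against 7.36% of all tested probe sets. Both lay below in 2 of 20, those of Hspb1, against 6.61%. The other 4 were overlapping. Over the 8 arrays, the 6 genes Hsph1, Hspa1b, Hspa8, Hsp90aa1, Dnaja1 and Dnajb1 moved together, with Pearson's r between 0.759 and 0.937 over 15 pairs (median 0.872). Hspb1 ran against each of them, with r between -0.983 and -0.834. Within the 6 WT arrays alone the same pairs gave -0.093 to 0.885 (median 0.523), and Hspb1 gave -0.95 to -0.46. These 6 genes were picked after their values were seen, each array carries its own scaling error into all of them, and the coefficients are a description.

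MT livers were also compared with all WT livers at once, as the mean of the 3 ages, which uses the 3-month WT arrays again. Here 10 of 20 probe sets were called, all higher in MT, against 0.795% of all tested probe sets in either direction and 0.284% higher. They were all 3 of Dnaja1, all 3 of Hspa1b, the 3 tested ones of Hsp90aa1 and 1 of Hsph1. Dnaja1 rose by 0.92 ± 0.11 in 1460179_at (adjusted p = 0.00903) and by 0.90 ± 0.10 in 1459835_s_at (adjusted p = 0.00867). The Hsp90aa1 probe set of highest mean rose by 0.65 ± 0.10 (adjusted p = 0.0292), Hsph1 by 0.81 ± 0.12 (adjusted p = 0.0253) and the Hspa1b probe set of highest mean by 1.35 ± 0.22 (adjusted p = 0.033). Hspa8, at 0.76 ± 0.15 in its probe set of highest mean, did not pass (adjusted p = 0.0663), nor did Dnajb1 at 0.64 ± 0.13 (0.0663) or Hspb1 at -0.79 ± 0.17 (0.0765).

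Instead of 10 calls there were 5 without MT array 1, 2 without MT array 2, 2 and 3 without the first and the second 3-month WT array, and 3 and 2 without the first and the second 19-month WT array. Without the first and the second 12-month WT array there were 13 and 12. Centring each array on its median left 6, with 0.7% of all tested probe sets called. The flat prior variance left 0, with 19 of all tested probe sets called. The total over all tested probe sets also fell without either MT array or either 19-month WT array. It rose without either 12-month WT array. The chaperone counts alone therefore cannot tell a loss of chaperone calls from a loss over the whole fit. Only the call of Dnaja1 1460179_at was kept with each of the 8 arrays left out, at adjusted p of 0.0123 to 0.0446.

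Chaperone signals of the young MT livers were also set against older WT livers. Against 12-month WT livers, 4 of 20 probe sets were called, all higher in MT (0.457% of all tested probe sets were called in either direction and 0.182% higher). They were Dnaja1 1459835_s_at (1.07 ± 0.13, adjusted p = 0.0185) and 1460179_at (0.85 ± 0.13, 0.0357), the Hsp90aa1 probe set of highest mean (0.81 ± 0.12, 0.0328) and the Hspa8 probe set given above. Against 19-month WT livers, 1 was called, Dnaja1 1460179_at (0.86 ± 0.13, adjusted p = 0.0427), where 0.275% of all tested probe sets were called and 0.0888% were called higher. The differences of Hsph1 (0.61 ± 0.15), Hspa1b (1.05 ± 0.28) and Hsp90aa1 (0.56 ± 0.12) from 19-month livers did not pass. The median over the 8 genes was 0.86 against 12-month and 0.59 against 19-month livers, with 0.03 and -0.01 over all tested probe sets. Without single arrays the count against 12-month livers lay between 0 and 5: it was 5 without MT array 1, 4 without the second 12-month array, 1 when the first 12-month array or either one of the 19-month arrays was left out, and 0 when MT array 2 or either one of the 3-month arrays was left out. Of the calls named against 12-month livers, that of Dnaja1 1459835_s_at was kept in 5 of the 8 fits with an array left out, that of Hspa8 in 1, without the second 12-month array, and those of Dnaja1 1460179_at and Hsp90aa1 in 0. The single call against 19-month livers was kept only in the fits that left out a 12-month array.

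**Figure D4:**
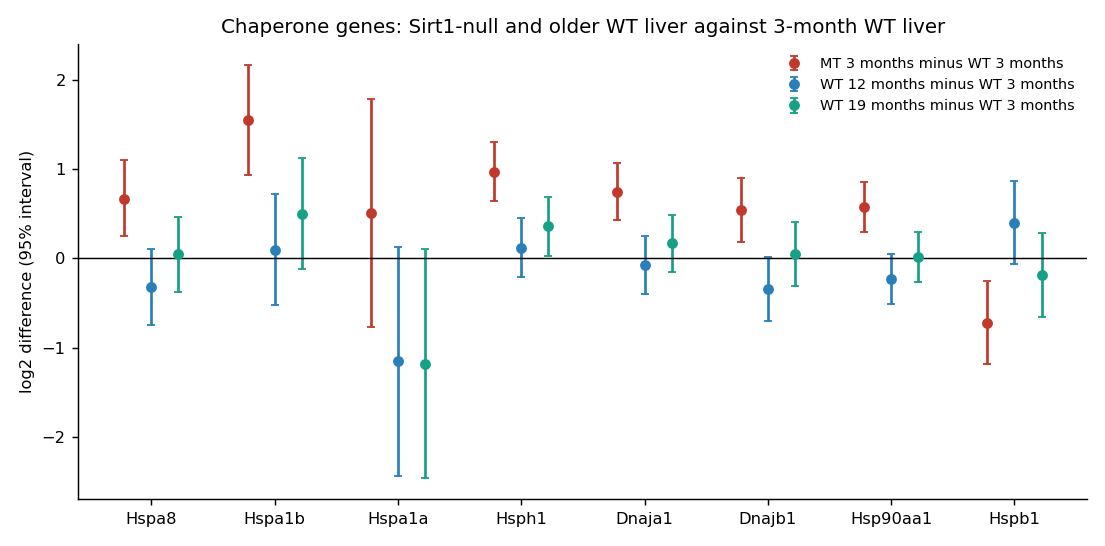
Log2 difference from 3-month WT livers, with 95% intervals from limma, of the probe set of highest mean of 8 chaperone genes in MT livers of 3 months (red) and WT livers of 12 (blue) and 19 months (green). The 3 comparisons share the 3-month WT arrays, and only the MT value of Hsph1, 0.97, passed an adjusted p of 0.05.

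Age alone moved no chaperone gene past the test in WT livers. Called were 0 of 20 probe sets between 3 and 12 months, between 3 and 19 months and between 12 and 19 months, where 0.0133%, 0.0355% and 0% of all tested probe sets were called. At an unadjusted limma p under 0.05 there were 1, 4 and 7 of 20, against 8.57%, 12.5% and 10.7% of all tested probe sets. The methods' t-test after adjustment called 0 of all tested probe sets in each, so its 0 for the chaperones says nothing about age. The median over the 8 genes was -0.15 at 12 months and 0.05 at 19 months, with 0 and 0.02 over all tested probe sets. Across ages the order of the means was alike in many probe sets. Of the 18 outside Hspb1, the 12-month mean was the lowest of the 4 groups in 11. The 19-month mean was the highest of the WT groups in 16. No step between WT ages passed the test in any of these probe sets. Several of them read the same gene on the same arrays, and the matching share over all tested probe sets was not taken. The counts therefore do not set the chaperones apart from other genes.

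The age differences had these 95% intervals. For Hsph1 the difference from 3 months was 0.12 ± 0.15 at 12 months (interval -0.21 to 0.45) and 0.36 ± 0.15 at 19 months (0.03 to 0.69, adjusted p = 0.368). For the Hspa1b probe set of highest mean it was 0.10 ± 0.28 (-0.52 to 0.72) and 0.50 ± 0.28 (-0.12 to 1.12). For Hsp90aa1 it was -0.23 ± 0.12 (-0.51 to 0.05) and 0.02 ± 0.12 (-0.26 to 0.30). Hspa8 1420622_a_at had its lowest mean at 12 months and gave 0.97 ± 0.20 at 19 against 12 months (adjusted p = 0.191). The widely spread 1431182_at gave 1.56 ± 0.59 (adjusted p = 0.401). The Hspb1 probe set of highest mean had its highest signals at 12 months (0.40 ± 0.21, adjusted p = 0.641) and gave -0.59 ± 0.21 at 19 against 12 months (adjusted p = 0.36), while the other gave -0.02 ± 0.55 and -0.90 ± 0.55 in the same comparisons.

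The partners of these chaperones were compared between MT and 3-month WT livers by gene, as for the chaperones, where 1 of 8 genes was called by its probe set of highest mean. Of 24 tested co-chaperones of Hsp70 and Hsp90, 0 were called, with a median of 0.13. Those of largest moderated t were Chordc1, Unc45a and Cacybp. Chordc1, an Hsp90 partner, gave 0.68 ± 0.16 (adjusted p = 0.104) and Unc45a, an Hsp90 co-chaperone for myosin, 1.15 ± 0.27 (0.107). Cacybp gave 0.52 ± 0.13 (0.126). Cacybp rose against 12-month WT livers (0.77 ± 0.13, adjusted p = 0.0497). Of 12 other J proteins and Hsp70s, 10 were above 0 and 1 rose, Hspa13, a microsomal Hsp70 relative, with 3132 and 2879 in MT, against 1495 and 1345 at 3 months, 1631 and 2300 at 12 months and 1841 and 1944 at 19 months in WT (1.08 ± 0.18, adjusted p = 0.0378). Dnajc2, a J protein at the ribosome, gave 0.45 and Dnaja2, the near relative of Dnaja1, 0.38, and neither passed.

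Other folding systems were read in the same way. The 14 tested subunits of the TRiC chaperonin and prefoldin, which fold actin and tubulin, had 0 calls and a median of 0.20, with 12 above 0, led by Cct2 at 0.31, Cct6a at 0.25 and Pfdn6 at 0.25. The 5 other small heat shock proteins had 0 calls and a median of 0.02, with Cryab at 0.29, Hspb6 at 0.23 and Hspb2 at -0.09. Of the 4 tested heat shock factors and regulators, 0 were called: Hsf4 gave 0.41, Hsf2 -0.14 and Hsbp1, which binds HSF1, 0.01 with a standard error of 0.12. The 14 ER chaperones had 0 calls and a median of 0.11, but Dnajb9, an ER J protein, gave 1.0 ± 0.20 (adjusted p = 0.0654), Hspa5, the ER Hsp70, 0.84 ± 0.17 (0.0683) and Creld2 1.86 ± 0.47 (0.125).

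The mitochondrial list had a median of -0.09 over 11 tested genes, a range of -1.43 to 0.05 and 1 call. Clpx, the unfoldase of the ClpXP protease, fell in MT, where it read 3850 and 4286, against 10226 and 8963 at 3 months, 8419 and 6935 at 12 months and 8912 and 7761 at 19 months in WT (-1.24 ± 0.15, adjusted p = 0.0115). It was also lower than at 12 months (-0.91, adjusted p = 0.04) and 19 months (-1.03, 0.0343). Grpel2, an exchange factor of the mitochondrial Hsp70, gave -1.43 ± 0.37 (adjusted p = 0.128) and Clpp -0.24 (0.489), and neither passed.

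**Figure D5:**
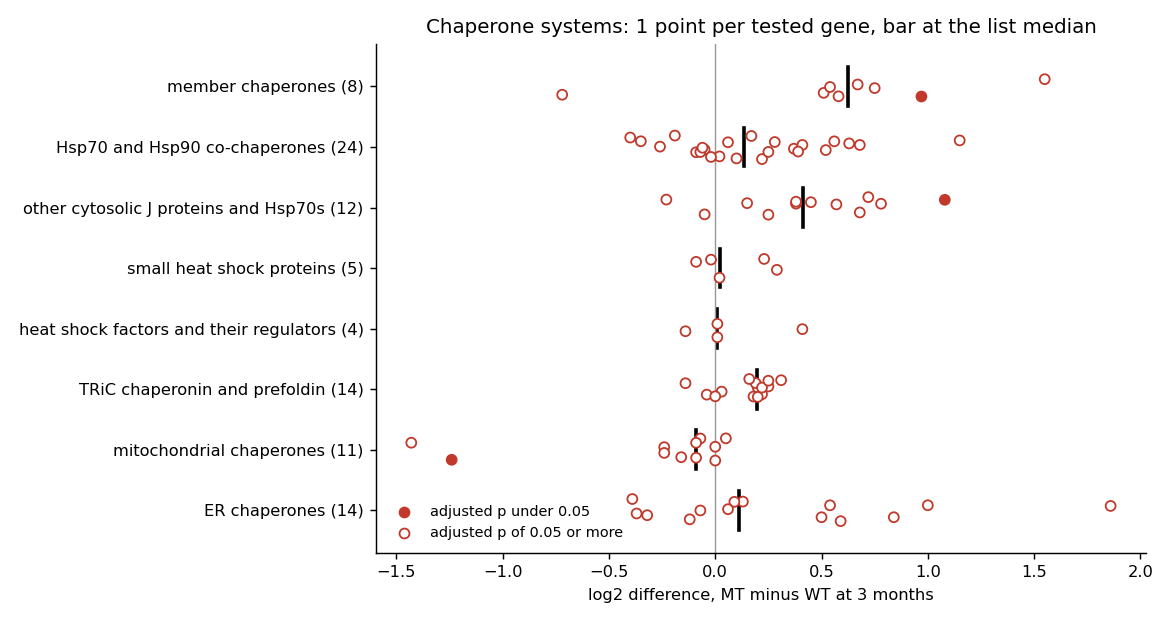
Log2 difference between MT and WT livers at 3 months for each tested gene of 8 lists, with the number tested in brackets and a bar at the list median. Filled points passed an adjusted p of 0.05, which were Hsph1, Hspa13 and Clpx, the last one lower in MT.

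Genes tied to temperature, time of day and stress were read beside the chaperones, and their part in the result was not tested. Of the RNA-binding proteins that respond to temperature, Srsf3 rose, with 5631 and 5632 in MT, against 2734 and 2666 at 3 months, 2858 and 3019 at 12 months and 2865 and 3616 at 19 months in WT (1.06 ± 0.14, adjusted p = 0.0179), while Srsf5 and Cirbp each gave 0.32 and did not pass. Of 8 clock genes Per2, a repressor of the clock, rose by 3.64 ± 0.21 (adjusted p = 0.000463), with 1004 and 967 in MT, against 83.2 and 75.2 at 3 months, 227 and 305 at 12 months and 321 and 308 at 19 months in WT. Per3 gave 2.56 (adjusted p = 0.063) and Arntl, which encodes BMAL1, -1.81 (0.0528), and Arntl was called lower against the mean of the WT ages (-1.61, adjusted p = 0.033). Of 11 immediate early genes 0 were called, with a median of -0.62, and those of largest t were Dusp1 (-1.07), Myc (-0.87) and Egr1 (-1.57). Of 4 other stress genes the metallothioneins had the most negative differences, with Mt2 at -3.08 (adjusted p = 0.0532; called against the mean of the WT ages at -2.70, 0.0346) and Mt1 at -2.10 (0.0939), and Ddit3 gave 0.53.

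Cell makeup was checked through markers, and in whole liver fewer cells of a type and less RNA per cell cannot be told apart. All 8 hepatocyte markers passed the filter, with a summed signal of 394522 to 411409 in MT, 373427 to 388729 at 3 months, 367380 to 414748 at 12 months and 311535 to 337577 at 19 months in WT. The 6 markers of T and NK cells summed to 442 to 495 in MT and 531 to 771 in WT, and the 5 of neutrophils to 1180 to 1472 in MT and 796 to 809 at 3 months, 917 to 1060 at 12 months and 1617 to 1969 at 19 months in WT. The 8 macrophage markers summed to 13830 to 16446 in MT, against 18271 to 18690 at 3 months, 15435 to 17187 at 12 months and 21193 to 33519 at 19 months in WT. B and plasma cell markers were at 1148 to 1757 in MT, against 1109 to 1418 at 3 months, 3760 to 4927 at 12 months and 7641 to 8458 at 19 months in WT. Of the tested markers of 9 cell types, 0 were called between MT and 3-month WT livers. In the other MT comparisons some were called lower in MT. Of the B and plasma cell markers these were 1 against 12-month WT livers, 2 against 19-month WT livers and 1 against the mean of the WT ages. Of the endothelial markers 1 was called against that mean. The log2 ratio of the actin 3′ to 5′ controls, a measure of RNA length, was 0.97 and 1.48 in MT and 1.09 to 1.31 in WT, and that of Gapdh was -0.62 and -0.38 in MT and -0.59 to -0.34 in WT. That of pyruvate carboxylase was 3.88 and 3.93 in MT, against 4.25 and 3.88 at 3 months, 4.54 and 5.10 at 12 months and 5.86 and 4.77 at 19 months in WT, so that MT overlapped the 3-month and lay below the older WT arrays. Whether these differences take part in the chaperone result was not tested.

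The genes whose pattern over the 8 arrays was most like that of Hsph1 were Nudt19 (r = 0.979), Mybbp1a (0.975), Pitpnc1 (0.974), Zfp612 (0.974) and Dnajc5 (0.973), among tested probe sets with 1 symbol. Nudt19 read 2590 and 2197 in MT, against 1138 and 1272 at 3 months, 1366 and 1227 at 12 months and 1715 and 1735 at 19 months in WT, and rose against 3-month WT livers (0.99, adjusted p = 0.0282). Most like the mean of the centred signals of the 8 chaperone genes were Coq10b (r = 0.976), Gopc (0.976), Nckipsd (0.975), Ap1g1 (0.967) and Gpatch4 (0.965). Coq10b, a coenzyme Q-binding protein of mitochondria, read 1690 and 2540 in MT, against 445 and 393, then 370 and 348, then 322 and 567 at the 3 WT ages, and rose by 2.31 (adjusted p = 0.0122). These coefficients were picked as the highest and are a description.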

How the data were processed

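Liver RNA of 8 samples in 4 groups was hybridised to 1-colour Affymetrix arrays. The authors deposited linear MAS5 signal intensities, in which the mean between the 2 and the 98 percentile was 500.0 on every array, and this scaling was not changed. Detection calls were not used here. After 64 control probe sets had been set aside, signals were floored at 1 and log2 was taken. The filter kept the probe sets whose mean log2 signal reached 6.18, which are the upper 50% (22519). A limma fit (version 3.58.1, R 4.3.3) held all 4 groups, with eBayes and a prior variance that follows the signal level, and had 4 residual and 5.37 prior degrees of freedom. For each of 7 comparisons the two-sided p-values were corrected by the method of Benjamini and Hochberg. Exact permutation of 2 against 2 arrays cannot pass the threshold and was not run. The t-test of the methods was tried as an alternative, beside other normalizations, transforms, filters, designs and left-out arrays.

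Signals were given for every tested probe set of every chaperone, and the probe set with the highest mean stood for a gene. In the other lists the called genes and the 3 of largest absolute moderated t in MT against 3-month WT livers were named, and the 5 genes most like Hsph1 and most like the mean chaperone signal by Pearson's r. The members and lists were chosen with earlier results of these data known. A signal below the median of its array on both arrays of a group was treated as a bound. Promoter windows came from RefSeq tables (GRCm38.p6), searched with Python 3.11.15, pandas 2.3.3 and numpy 2.4.6, and drawn with matplotlib 3.10.9. The number of arrays limits the precision.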

Additional observations from a re-analysis of the deposited data

How the results depend on the processing

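Over the 8 genes, 7 comparisons and all alternatives, 832 values were set beside the reported ones. Of these 756 kept their direction and their side of the threshold, 50 lost a call, 16 gained one and 10 changed sign. Of the last, 9 were between WT ages and 1, of Hspa1a, between MT and 3-month WT livers. Most of the 832 values belong to reported results that were not called and had no call to lose. The losses were 8 for Hsph1 against 3-month and 12 for Hsp90aa1 against 12-month WT livers. The other 30 were for the 4 genes called against the mean of the WT ages. With 2 arrays per group and no detection calls, low signals such as those of Hspa1a have the least support.

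Leaving out 1 array gave 0 to 9 called chaperone probe sets for MT against 3-month WT livers (5 with all arrays), 0 to 5 against 12-month WT livers (4), 0 to 1 against 19-month WT livers (1) and 2 to 13 against the mean of the WT ages (10), and 0 between WT ages. The total called over all tested probe sets also moved with the array left out, so the ranges of calls do not set the chaperones apart. The median log2 difference of the genes lay between 0.63 and 0.73 for MT against 3-month WT livers. It lay between -0.18 and -0.01 for 12 against 3 months and between 0.02 and 0.19 for 19 against 3 months.

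A prior variance without a trend gave 0 calls in the 4 MT comparisons. Of all tested probe sets it called 9 against 3-month, 1 against 12-month and 2 against 19-month livers, and 19 against the mean. Centring arrays on their medians gave 2 against 12-month, 0 against 19-month and 6 against the mean of the WT livers. Of all tested probe sets it called 0.4%, 0.4% and 0.7%, against 0.457%, 0.275% and 0.795% in the main fit. An offset of 16 before the log gave 7 against 12-month livers, with about 0.5% of all tested probe sets called. Without the filter, 0 were called against 19-month livers, with 0.1% of all 45037 probe sets called. Fitting only the groups compared gave 0 against 12-month and 0 against 19-month livers, with 0.04% and 0.1% of all tested probe sets called. The methods' t-test, at an unadjusted p under 0.05 and a fold over 1.5, called 6 against 3-month, 8 against 12-month and 5 against 19-month livers. This threshold is loose. It called about 4%, 3% and 3% of all tested probe sets in these comparisons. Limma called 0.515%, 0.457% and 0.275%. After Benjamini-Hochberg the t-test called 0 chaperone probe sets in each. It then also called 0 of all tested probe sets, so its 0 for the chaperones says nothing about them. Averaging all probe sets of a gene put the medians at 0.70 for MT against 3-month WT livers, -0.04 at 12 months and 0.16 at 19 months, and quantile normalization put the last at 0.12. The causes were not tested.

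With the replicate number as a block, 7 chaperone probe sets were called against 12-month and 0 against 19-month WT livers, 6 against 3-month livers and 12 against the mean. In the same order, 0.5%, 0.3%, 0.6% and 0.9% of all tested probe sets were called. With no block these shares were 0.457%, 0.275%, 0.515% and 0.795%. Same-numbered arrays correlated at -0.033 to 0.141 in their deviations. With 1 coefficient per pair of groups, this cannot decide if the numbers pair the samples. Array 2 of each group had the higher median signal, and a batch was not tested.

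Signs changed for Hspa1a between MT and 3-month WT livers (0.51, range -0.26 to 1.28 with an array left out) and between 19 and 12 months (-0.02, range -0.51 to 0.47, and 0.00 after quantile normalization). Between 12 and 3 months they changed for Dnaja1 (-0.07, range -0.17 to 0.03) and Hspa1b (0.10, range -0.19 to 0.38), and between 19 and 3 months for Hspa8 (0.05, range -0.13 to 0.23), Dnajb1 (0.05, range -0.07 to 0.16) and Hsp90aa1 (0.02, range -0.06 to 0.09).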
